A study of Homo sapiens with 10 samples.

Results

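The annexins are a family of calcium-dependent phospholipid-binding proteins, and 8 of their messages were followed here in 2 parts of MDA-MB-231 cells, a triple-negative human breast cancer line: ANXA1, ANXA2, ANXA3, ANXA4, ANXA5, ANXA6, ANXA7 and ANXA11. The members were chosen by gene symbol, each symbol had 1 entry, and they are 8 of the 26134 genes in the deposited table. The protrusion group had 5 libraries and the cell body group another 5, and both carry the numbers 1 to 5. Single cells of the line were held by micro-hooks on a chip, formed protrusions over 6 h and were fixed in 4% paraformaldehyde for 15 min. A laser then cut protrusion and body apart, and the messenger RNA was amplified with an ultra-low-input kit and sequenced. The number of cells behind a library is not in the labels, nor is whether each library had a culture of its own, and every p-value below therefore reflects spread that may be technical.

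Annexins share a conserved core of repeats that binds acidic phospholipids when calcium rises, and differ in the amino-terminal tail in front of it. In motile and invasive cells they are known for repairing the plasma membrane, organising membrane and cortical actin, and moving vesicles. ANXA2 and ANXA11 are also known to bind RNA, and ANXA11 links RNA granules to lysosomes during transport in neurons. Messages that accumulate in protrusions of other cells, RAB13 among them, are known to carry GA-rich stretches in their 3′ untranslated regions.

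Values are scaled TPM, that is TPM (a library's transcripts after division by their length, brought to a fixed sum) which, as the values in the deposited table show, carry 1 further factor per library. They are per length and so can be set side by side between genes. TPM are shares of the RNA in a library, and the further factor gives no absolute amount. Less of a message in protrusions and more of all other messages therefore cannot be told apart. The deposited values summed to 737343 to 1103250 in protrusion libraries and to 967421 to 1390250 in cell body libraries, and the read depth is unknown. Messages typical of the line (VIM, CD44, MSN, SPARC, LOX, AXL and CAV1) summed to 949 to 1328 in protrusions and to 959 to 1204 in cell bodies. VIM (mean 588 in protrusions and 596 in cell bodies) and CAV1 (394 and 376) made up most of this. SPARC (3.61 and 2.51) and LOX (0.909 and 0.660) were low. The 6 luminal markers with an entry summed to 2.43 to 8.58 in protrusions and to 5.52 to 8.15 in cell bodies. PGR was at 0 in 9 of the 10 libraries, but the other markers were low rather than absent. EPCAM stood at 0.787 to 5.2 in protrusions and 1.54 to 4.18 in cell bodies, and ERBB3 at 0 to 2.13 and 1.12 to 1.86. GATA3 stood at 0.295 to 1.64 and 0.552 to 0.987, and FOXA1 at 0 to 0.75 and 0.223 to 0.565. CDH1 stood at 0 to 0.107 in protrusions and 0.745 to 1.38 in cell bodies. The 3 blood markers with an entry summed to 0.074 to 2.53 in protrusions and to 9.68 to 20.3 in cell bodies, mostly LYZ, while PTPRC was at 0 in 8 libraries and CD3E in 9. The 2 keratinocyte markers with an entry summed to 69.6 to 85.7 in protrusions and to 94.3 to 112 in cell bodies, all but a trace of it KRT10, with KRT14 at 0 in 9 libraries. The nuclear RNAs MALAT1 and NEAT1 together stood at 0.450 to 28.0 in protrusions and at 51.7 to 147 in cell bodies, and protrusion library 2 held the highest protrusion value of MALAT1, 25.2, against 0.288 to 5.06 in the other 4.

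All 8 members reached a value of 1 in at least 5 libraries, the condition for testing. In the fit of the deposited values, 1 of the 8, ANXA11, was higher in protrusions at an adjusted p under 0.05, 0 were lower and 7 did not pass (limma; 0 were lower also at an unadjusted p under 0.05, with and without the block described below). Over all 10894 tested genes 4.28% were higher in protrusions and 21.5% were lower. The median log2 difference was 0.28 over the 8 members and -0.03 over all tested genes. Over the 9072 protein-coding tested genes it was 0.02, and 430 of these were higher and 1532 lower. A block for the replicate number pairs each protrusion library with the cell body library of the same number. With this block 3 members were higher (ANXA11, ANXA6 and ANXA3) and 0 were lower, where 13.0% of all tested genes were higher and 25.4% were lower.

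The 3′ untranslated regions of the 3 members higher in protrusions with the block, and of ANXA2 as the most abundant member, are shown through the 30-base window with the most purines, given at least 8 G and 8 A, because GA-rich stretches are the known feature of protrusion messages. RAB13 is printed with them as the known example. Capitals mark A and G, and each sequence reads 5′ to 3′ along the message.
ANXA11: GAGGAGAGAAAGGGAGGcGtGcctGAGAAG
ANXA6: AGAGActAAGGAAGGGGcAGGGGtGGGGGG
ANXA3: AGAAGAtAAtctccAAAGGtccAcGAtGGG
ANXA2: AAAGAAAtGAAcAttccAAGGAGttGGAAG
RAB13: AGAAAGGAAAAAAAGGAAGAGAGAGGAAGG

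The windows come from 1 GENCODE release 29 transcript per gene on GRCh38, searched on the message strand. They lie at chr10:80155379-80155408 (minus strand) for ANXA11, chr5:151101336-151101365 (minus) for ANXA6, chr4:78610120-78610149 (plus) for ANXA3, chr15:60347413-60347442 (minus) for ANXA2 and chr1:153981919-153981948 (minus) for RAB13. The RAB13 window held 30 purines of 30, and 0 of 970 other 3′ untranslated regions of like length (0.8 to 1.25 times as long) had as many. The ANXA6 window held 26, a count reached by 5.40% of 833 regions of like length. The ANXA11 window held 25, reached by 77.1% of 546 regions of like length, in a region of 4964 bases where such a window is common. The ANXA3 window held 19 (reached by 75.9%) and the ANXA2 window 22 (56.2%). Of the other members, ANXA4, ANXA7 and ANXA5 had 23, 19 and 17 purines in their best window, reached by 77.4%, 98.7% and 97.9% of regions of like length. ANXA1 had no window with 8 G and 8 A in the 286 bases of its region. A window is a description of the sequence and was not tested as a localisation element.

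ANXA11 was the member that separated the compartments. It has a long, disordered amino-terminal tail and lies on chr10:80150889-80205572 (GRCh38, minus strand). Its message stood at 39.2, 54.2, 29.9, 43.7 and 35.8 scaled TPM in protrusion libraries 1 to 5, against 26.6, 26.9, 29.2, 23.2 and 23.2 in cell body libraries 1 to 5. Every protrusion value lay above every cell body value, with protrusion 3 and cell body 3 almost level. The means were 40.6 ± 9.13 in protrusions and 25.8 ± 2.62 in cell bodies (SD, n = 5 each), and the log2 difference was 0.61 ± 0.18 (SE, 95% interval 0.23 to 0.99, limma adjusted p = 0.0197). ANXA11 was the 1 member of 8 with no overlap between groups, and among all tested genes 3.46% were without overlap in this direction and 18.4% in the other. The adjusted p was 0.0325 without both libraries numbered 2. It was 0.0525 without protrusion replicate 4 and 0.051 without cell body replicate 4, with differences of 0.58 in both cases. These fits were without the block. With the block and all 10 libraries the limma adjusted p was 0.00693.

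ANXA6, which carries a duplicated annexin core and acts in cholesterol handling and endocytosis, had the next largest difference at a low level (chr5:151100712-151157882, minus strand). It was measured at 6.27, 9.68, 8.77, 6.37 and 5.17 scaled TPM in protrusion libraries 1 to 5, against 5.54, 4.78, 4.01, 4.85 and 3.73 in cell body libraries 1 to 5. Each protrusion library was above the cell body library of its own number, and only protrusion 5 fell within the range of the cell bodies. The log2 difference was 0.54 ± 0.21 (SE, 95% interval 0.09 to 1.00). It missed the threshold without the block (limma adjusted p = 0.0783) and passed with it (adjusted p = 0.0427).

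ANXA3 is known as an inhibitor of phospholipase A2 (chr4:78551519-78610451, plus strand). Its message stood at 44.2, 27.8, 44.3, 34.0 and 39.8 scaled TPM in protrusion libraries 1 to 5, against 28.8, 18.5, 32.1, 34.5 and 28.8 in cell body libraries 1 to 5. The libraries numbered 2 were the lowest of both groups, the pair numbered 4 was level, and the other 4 pairs were higher in the protrusion. The log2 difference was 0.41 ± 0.20 (SE, 95% interval -0.02 to 0.84), with a limma adjusted p of 0.164 without the block and 0.0255 with it.

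The 3 most abundant members did not pass on the deposited scale, with or without the block. Their intervals held 0 in both fits. Without the block they left room for a difference in either direction, and with the block they were shorter. ANXA2, which forms a complex with S100A10 at the plasma membrane and serves as a surface receptor for plasminogen, lies on chr15:60347134-60402883 (minus strand). Its message stood at 1007, 713, 1264, 1168 and 1257 scaled TPM in protrusion libraries 1 to 5, against 1121, 542, 1283, 1227 and 1138 in cell body libraries 1 to 5. The groups overlapped over nearly their whole range, and the libraries numbered 2 were the lowest of each. The log2 difference was 0.06 ± 0.24 (SE, 95% interval -0.45 to 0.57, limma adjusted p = 0.891), and -0.13 to 0.25 was the interval with the block.

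ANXA1, a glucocorticoid-induced protein that limits inflammation through formyl peptide receptors, had 282, 223, 397, 299.9 and 269 scaled TPM in protrusion libraries 1 to 5, against 364, 185, 420.4, 355 and 334 in cell body libraries 1 to 5. It is on chr9:73151757-73170393 (plus strand). In 4 of the 5 numbers the protrusion library was the lower one, and number 2 was the exception. The log2 difference was -0.15 ± 0.22 (SE, 95% interval -0.62 to 0.32, limma adjusted p = 0.681), and -0.37 to 0.07 was the interval with the block. ANXA5, the phosphatidylserine-binding protein used as a probe of dying cells, had 217, 152, 293, 304 and 289 scaled TPM in protrusion libraries 1 to 5, against 225, 127, 290, 302 and 295 in cell body libraries 1 to 5 (chr4:121667955-121697113, minus strand). Both libraries numbered 2 were the lowest of their group, and in the other 4 numbers protrusion and cell body were nearly level. The log2 difference was 0.04 ± 0.26 (SE, 95% interval -0.51 to 0.59, limma adjusted p = 0.930), and -0.14 to 0.22 was the interval with the block.

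ANXA7 and ANXA4 lay between these patterns. ANXA7, described as a membrane fusion factor of secretory granules, ranged from 22.7 to 37.6 scaled TPM in protrusions (median 28.9) and from 24.7 to 30.2 in cell bodies (median 25.2). The log2 difference was 0.22 ± 0.17 (SE, limma adjusted p = 0.408), and 4 of 5 numbers were higher in the protrusion. ANXA7 shares 3.67% of its exonic bases with another gene in the annotation, and the other 7 members share none. ANXA4, a membrane-organising annexin of epithelia, ranged from 4.17 to 10.5 scaled TPM in protrusions (median 7.38) and from 2.95 to 7.80 in cell bodies (median 5.82). Its log2 difference of 0.34 ± 0.28 (SE, 95% interval -0.26 to 0.94, limma adjusted p = 0.422) had the widest interval of the family.

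**Figure D1:**
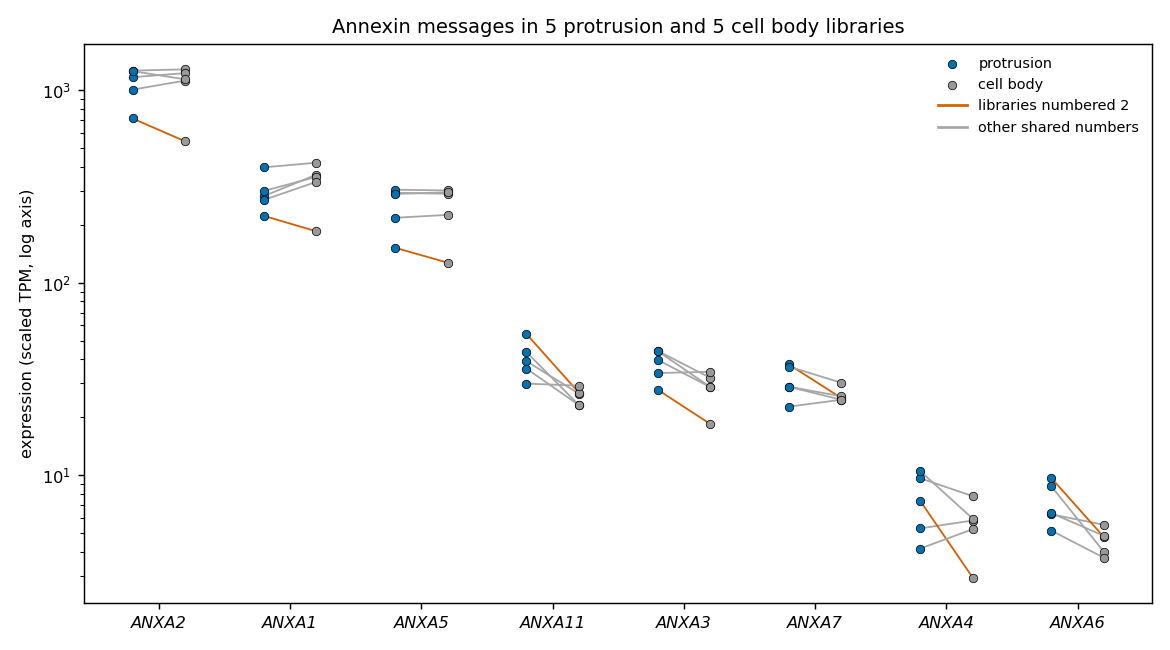
Level of each annexin message (scaled TPM, log axis) in 5 protrusion and 5 cell body libraries, with lines joining libraries of the same number and number 2 in orange. ANXA2, ANXA1 and ANXA5 stand apart above the others and overlap between compartments, and for ANXA11 every protrusion value lies above every cell body value.

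The order of the levels was nearly the same in both compartments. ANXA2 ranked first in both, with its lowest library above the highest ANXA1 library, and ANXA1 and ANXA5 followed with overlapping ranges. ANXA11, ANXA3 and ANXA7 formed the middle group, in that order of means in protrusions (40.6, 38.0 and 31.0) and in the order ANXA3, ANXA7, ANXA11 in cell bodies (28.5, 26.1 and 25.8), and neighbours in this group overlapped in both compartments. ANXA4 and ANXA6 were lowest, at 7.41 and 7.25 in protrusions and 5.56 and 4.58 in cell bodies, again with overlapping ranges. Among all 10894 tested genes ANXA2 ranked 169 in protrusions and 188 in cell bodies by mean level.

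The summed level of the 8 members was 1752 ± 338 scaled TPM in protrusions and 1732 ± 461 in cell bodies (SD, n = 5 each). ANXA1, ANXA2 and ANXA5 made up 88.8% to 94.1% of this sum in protrusions and 91.6% to 95.4% in cell bodies, so the sum describes these 3 genes. ANXA2 alone held 61.5% ± 2.49 of it in protrusions and 61.0% ± 1.65 in cell bodies. ANXA11 held 2.49% ± 1.15 in protrusions and 1.63% ± 0.706 in cell bodies, and ANXA1 held 16.9% ± 2.02 in protrusions and 19.2% ± 1.12 in cell bodies. These shares do not depend on the factors between libraries. In every one of the 5 numbers the share of ANXA3, ANXA6, ANXA7 and ANXA11 was higher in the protrusion and that of ANXA1 was lower. The shares are parts of 1 sum, so a lower share of 1 member goes with higher shares of others. No count over all genes was made for shares of this sum, so these directions have no like background here. In TPM, which is a share of the whole library and so an unlike measure, 34.5% of all tested genes were higher in the protrusion in all 5 numbers. Another 19.5% were lower in all 5.

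**Figure D2:**
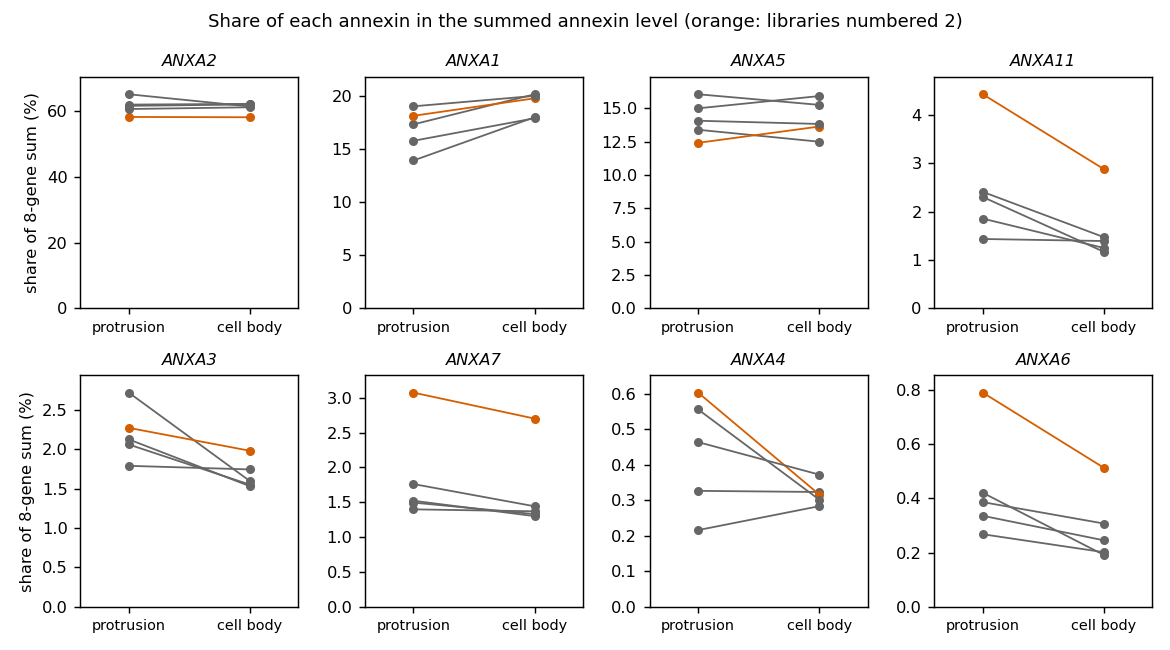
Share of each annexin in the summed level of the 8 messages (percent), protrusion left and cell body right, with lines joining libraries of the same number and number 2 in orange; each panel has its own axis starting at 0. ANXA11, ANXA6, ANXA3 and ANXA7 have a higher share in the protrusion of every number, and ANXA1 a lower one.

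Ratios between members within a library were tested for 2 pairs. The log2 ratio of ANXA1 to ANXA2 was -1.83, -1.68, -1.67, -1.96 and -2.22 in protrusion libraries 1 to 5, against -1.62, -1.55, -1.61, -1.79 and -1.76 in cell body libraries 1 to 5. It was lower in the protrusion in 5 of 5 numbers, but the groups overlapped, and the difference of -0.21 did not pass (exact two-sided permutation p = 0.0952, also 0.0952 adjusted over the 2 ratios). In the paired exact sign-flip test p was 0.0625, the smallest that 5 pairs can give. The log2 ratio of ANXA11 to ANXA7 was 0.76, 0.52, -0.29, 0.58 and 0.30 in protrusion libraries 1 to 5, against 0.10, 0.09, -0.05, -0.15 and -0.09 in cell body libraries 1 to 5. Protrusion 3 alone lay below the cell bodies, and the difference of 0.39 did not pass (exact two-sided permutation p = 0.0714, 0.0952 adjusted; paired exact sign-flip p = 0.125). Without protrusion replicate 3, the library that ran against the others, the difference was 0.56 (exact permutation p = 0.0159). The remaining protrusions all lay above every cell body, so this p is the smallest the test can then give. Protrusion 3 stands out by the tested value itself, so no conclusion is drawn from its removal. Leaving out any other single library gave an exact permutation p of 0.0952 to 0.143, and leaving out both libraries numbered 2 gave 0.171.

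The size of the differences and, for ANXA1 and ANXA5, their sign depended on the scaling between libraries. When each library was rescaled to the same sum, which returns TPM, the median log2 difference of all tested genes moved to 0.24. It moved to 0.28 under quantile normalization and to 0.09 when libraries were scaled by the median of ratios. Of the calls over all tested genes, 16.6% were higher in protrusions on the deposited scale, against 44.9%, 57.2% and 34.6% under these 3 scalings. The members called higher were 2 of 8 under each of the 3 and none was lower, where 14.1%, 21.8% and 10.4% of all tested genes were higher and 17.2%, 16.3% and 19.7% were lower. ANXA11 remained above these medians, at 0.96 (limma adjusted p = 0.00177), 0.68 (0.0128) and 0.76 (0.00223) under the same 3 scalings. ANXA3, ANXA4, ANXA6 and ANXA7 stayed above the medians too, ANXA7 only just after quantile normalization (0.31). ANXA6 passed under all 3, at 0.85 (0.0106), 0.88 (0.00526) and 0.67 (0.0266). ANXA1 changed sign with equal sums (0.21) and was at 0.00 with median-of-ratios scaling, and ANXA5 changed sign after quantile normalization (-0.03), and neither passed. ANXA2 stayed positive, at 0.42, 0.24 and 0.21, and did not pass.

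On the TPM scale the summed level of the family was 2045 ± 650 in protrusions and 1584 ± 572 in cell bodies (SD, n = 5 each), or 0.205% ± 0.0650 of a library in protrusions and 0.158% ± 0.0572 in cell bodies, and it was higher in the protrusion in 5 of 5 numbers. In TPM, ANXA2 had 1075, 646, 1714, 1417 and 1469 in protrusion libraries 1 to 5, against 893, 390.2, 1326, 1126 and 1126 in cell body libraries 1 to 5. On this scale the protrusion was above the cell body in all 5 numbers, and on the deposited scale in 2 of 5. Protrusion above cell body in all 5 numbers held in TPM for 6 of 8 members and 34.5% of all tested genes, and on the deposited scale for 2 members and 17.0% of genes. No overlap between groups held in TPM for 2 members, ANXA11 and ANXA6, and in this direction for 8.32% of all tested genes (15.1% in the other). With equal sums and the replicate block together, an alternative added after the data were seen, 7 of 8 members were higher in protrusions (all but ANXA1), where 33.8% of all tested genes were higher and 19.8% were lower. ANXA2 then had a log2 difference of 0.42 (limma adjusted p = 6.69e-04) and ANXA5 one of 0.40 (adjusted p = 0.00111). These are set against a median of 0.24 over all tested genes and of 0.30 over the protein-coding ones.

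**Figure D3:**
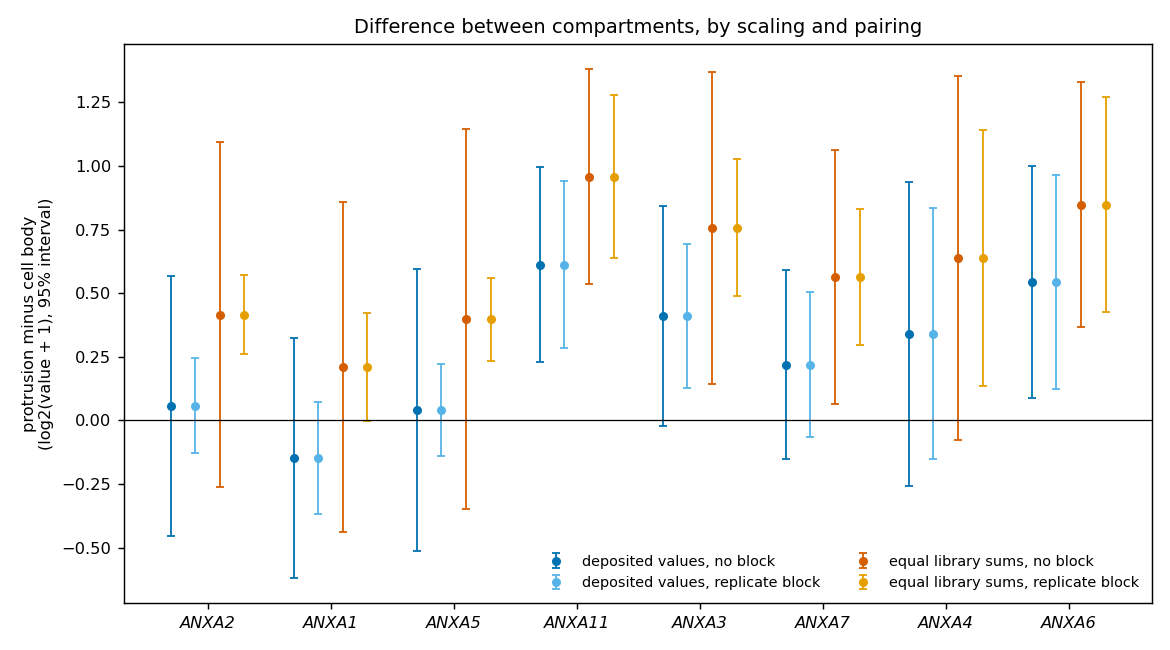
Log2 difference of each annexin, protrusion minus cell body on log2(value + 1), with 95% intervals from limma, for deposited values and equal library sums, each without and with the replicate block. The whole interval lies above 0 in all 4 fits for ANXA11 and ANXA6, and the estimate itself does so for every member but ANXA1. The block shortens the intervals of ANXA2, ANXA1 and ANXA5 most.

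The libraries numbered 2 stood apart in the annexin messages. ANXA1, ANXA2, ANXA3 and ANXA5, 4 of the 8 members, had their lowest value of both compartments in number 2, and 15.3% of all tested genes had the same pattern on the deposited scale (27.2% in TPM). No member had its highest value of both compartments there, which 16.9% of all tested genes had (4.33% in TPM). On the deposited scale ANXA11 and ANXA6 had their highest protrusion value in protrusion 2, and ANXA7 did too (37.6). This did not hold in TPM. There ANXA11 was highest in protrusion 4 (53.0, against 49.2 in protrusion 2). In TPM protrusion 3 was highest for ANXA6 (11.9, against 8.77 in protrusion 2) and for ANXA7 (49.8, against 34.1). Protrusion 2 also had the highest MALAT1 value among the protrusions, and the part of this in the annexin values was not tested. Without both libraries numbered 2 the log2 difference was 0.52 for ANXA11, 0.46 for ANXA6 (adjusted p = 0.158), 0.37 for ANXA3 (adjusted p = 0.0912) and -0.03 for ANXA2. With equal sums and without these libraries, 3 of 8 members were higher and none was lower, where 17.9% of all tested genes were higher and 18.0% were lower.

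The table held 9 further entries whose symbol begins with ANXA, and 8 of them were below the filter, with 0.717 as the highest value of any library. They were the coding genes ANXA8, ANXA8L1, ANXA8L2, ANXA10 and ANXA13 and the 3 pseudogenes of ANXA2. The pseudogenes reached at most 0.393, and how reads shared between them and ANXA2 were assigned is not given in the sources used here. ANXA2R, whose product is a membrane protein reported to bind annexin A2, was the 1 entry tested, at 0.958 to 3.86 in protrusions and 2.05 to 3.03 in cell bodies (log2 difference -0.35, limma adjusted p = 0.336).

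Partners of the annexins were followed in a list of 29 genes, of which 24 were tested: 1 was higher in protrusions, 2 were lower and 21 did not pass, with a median log2 difference of 0.00, where 4.28% of all tested genes were higher and 21.5% were lower. With the block 4 were higher and 5 lower, where 13.0% of all tested genes were higher and 25.4% were lower. VPS4A and CAPNS1 were among the 4, and the blocked fits of the rest of these are not given. VPS4A, an ATPase that disassembles the ESCRT machinery of membrane repair, was higher, at 11.6, 10.1, 16.1, 16.2 and 16.7 scaled TPM in protrusion libraries 1 to 5, against 8.54, 6.08, 10.5, 10.3 and 8.86 in cell body libraries 1 to 5 (log2 difference 0.62 ± 0.21 SE, limma adjusted p = 0.0448). Only protrusion 2 fell within the range of the cell bodies. In the fit without the block, leaving out any 1 of 7 of the libraries lost the call (adjusted p up to 0.107, without protrusion replicate 4). With the block and all 10 libraries the limma adjusted p was 0.00624, and VPS4A was higher in the protrusion in 5 of 5 numbers.

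PRKCA, the calcium-dependent protein kinase C alpha, was lower in protrusions, at 0.899, 1.56, 0.686, 1.25 and 0.881 scaled TPM in protrusion libraries 1 to 5, against 2.59, 3.92, 4.25, 2.89 and 3.83 in cell body libraries 1 to 5, with no overlap (log2 difference -1.13 ± 0.20 SE, limma adjusted p = 4.17e-04). PLAT, the tissue plasminogen activator that binds the ANXA2 complex, was also lower without overlap, at 1.52 to 3.41 in protrusions (median 2.09) and 3.57 to 6.49 in cell bodies (median 4.80). Its log2 difference was -0.87 ± 0.22 (SE, limma adjusted p = 0.00836), with an adjusted p of 0.0729 with equal sums and 0.0883 after quantile normalization. With equal sums and the block together the limma adjusted p was 0.0322.

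Of the 4 S100 genes in the list, whose products bind annexins, S100A10, S100A11 and S100A6 were the most abundant partners. S100A4, named after its values were seen, averaged 35.3 ± 9.04 scaled TPM in protrusions and 27.0 ± 8.28 in cell bodies (SD, n = 5 each), with a log2 difference of 0.39 (limma adjusted p = 0.253). S100A10, the partner of ANXA2, averaged 2585 ± 459 scaled TPM in protrusions and 3218 ± 517 in cell bodies (SD, n = 5 each), and was lower in the protrusion in 5 of 5 numbers (log2 difference -0.32, limma adjusted p = 0.202, and 0.00252 with the block), with a change of sign to 0.04 with equal sums and to 0.09 after quantile normalization. S100A11, the partner of ANXA1, averaged 2854 ± 697 in protrusions and 4406 ± 1419 in cell bodies (log2 difference -0.60, adjusted p = 0.058, and 5.58e-05 with the block), and the difference was -0.24 with equal sums (adjusted p = 0.124, and 0.009 with the block) and -0.15 after quantile normalization (adjusted p = 0.182). S100A6, which binds ANXA11 and other annexins, averaged 2945 ± 661 in protrusions and 4003 ± 694 in cell bodies (log2 difference -0.45, adjusted p = 0.0817, and 1.28e-04 with the block). The S100A6 difference was -0.09 with equal sums (adjusted p = 0.430, and 0.097 with the block) and -0.01 after quantile normalization. The calcium-binding protein gene SRI, whose product sorcin binds ANXA7, averaged 449 ± 35.8 in protrusions and 394 ± 61.6 in cell bodies (log2 difference 0.20, adjusted p = 0.364, and 0.0333 with equal sums). CAPNS1, the small subunit of the calpains, averaged 190.3 ± 106 in protrusions and 126 ± 40.3 in cell bodies (log2 difference 0.50, adjusted p = 0.235, 0.0121 with the block and 0.0128 with equal sums), with the libraries numbered 2 highest in both groups. The heat shock protein gene HSPB1 averaged 217 ± 60.3 in protrusions and 231 ± 83.0 in cell bodies (log2 difference -0.06, adjusted p = 0.877), with a change of sign to 0.29 with equal sums.

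Of the receptors of ANXA1, FPR1 and FPR2 were below the filter. FPR1 was at 0 in 6 of the 10 libraries, from both groups, and FPR2 at 0 in 4, all of them protrusions. FPR2 stood at 0 to 0.121 scaled TPM in protrusions and at 0.138 to 0.751 in cell bodies, and was not tested.

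**Figure D4:**
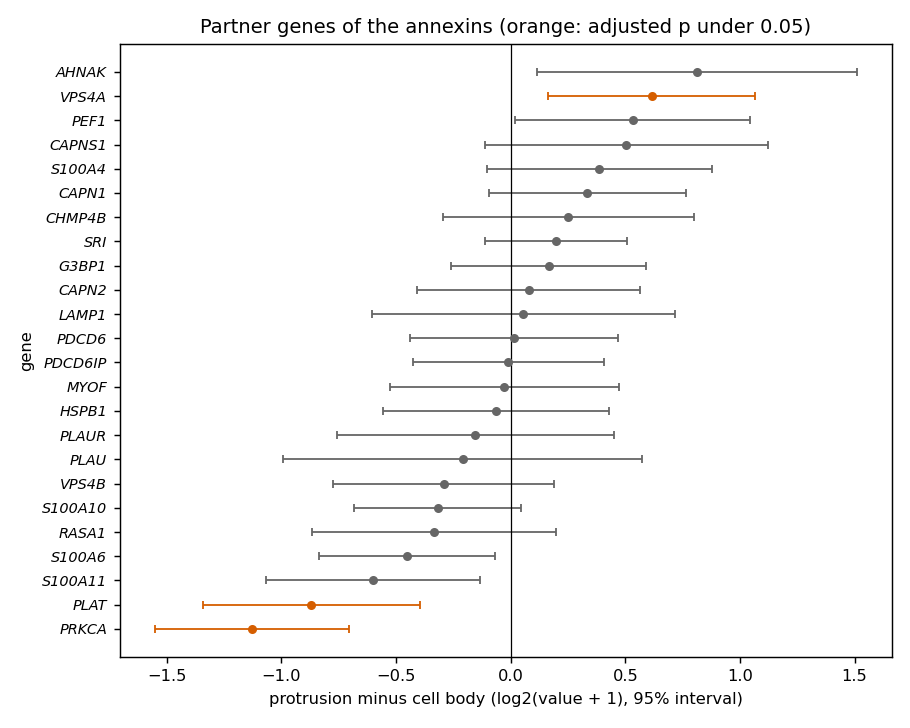
Log2 difference of the 24 tested partner genes, protrusion minus cell body on log2(value + 1) of the deposited values, with 95% intervals from limma; orange marks an adjusted p under 0.05. VPS4A is higher in protrusions, PRKCA and PLAT are lower, and the other 21 do not pass.

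For each member the protein-coding gene with the most similar profile was sought among 9063 tested genes outside the family, by the root mean square difference of log2(value + 1), each gene centred on its mean over the 10 libraries. ENO1, the glycolytic enolase, was nearest to ANXA5 (0.0725), MCM6, a helicase subunit of DNA replication, to ANXA7 (0.0795), and LAPTM4A, a lysosomal membrane protein, to ANXA2 (0.0966). TIPIN was nearest to ANXA4 (0.102), DHPS to ANXA3 (0.112), C1QBP to ANXA1 (0.123), ANKH to ANXA11 (0.132) and FAM104A to ANXA6 (0.149). The median gene differed from a member by 0.435 to 0.558. A small difference means only that 2 genes were high and low in the same libraries, which share the compartment, the number and the scaling factor. ANKH, the nearest to ANXA11, had a log2 difference of 0.52 between compartments (limma adjusted p = 0.0892).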

How the data were processed

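The deposited table holds 1 expression value per gene and library. Cutadapt 1.10, FastQC 0.10.1, HISAT2 and StringTie 1.3 are named, without role or order, per the submitters' processing notes; genome build, gene annotation and strandedness were not given in these sources. The unit was inferred: in each library 100% of the low deposited values (under 2) fell on whole steps of 1 size, to within 0.00051, as TPM to 2 decimals times 1 factor per library would give. The mean factor was 0.891 ± 0.138 in protrusions and 1.14 ± 0.177 in cell bodies (SD, n = 5 each). TPM keeps no read depth, so no counting interval or floor is given. The log2 fold changes, p-values and false discovery rates that the authors deposited were not used, because it was in doubt which libraries they compare.

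Genes reaching 1 in 5 or more of the 10 libraries were fitted with limma 3.58.1 (R 4.3.3; mean-variance trend, no block) on log2(value + 1), which understates the change of low genes, with Benjamini-Hochberg adjustment over all 10894 and a threshold of 0.05. Scripts were tested on simulated data. The numbers were taken to pair the libraries. Deviations from the group means of same-numbered libraries correlated at 0.236 to 0.577 across genes. Each protrusion library correlated most with the cell body library of its own number, and its highest correlation with another number was 0.0252 to 0.289. A blocked fit is therefore given where it changes a call, for the members and for the partners named by the rule below. The 2 ratios were tested by exact permutation. Members and lists were chosen with earlier results of these data known. Named were all members, partners past the threshold, the 6 other most abundant tested partners, and 1 nearest gene per member; FPR1, FPR2 and S100A4 were named after their values were seen. Transcripts came from GENCODE 29 by Ensembl identifier, where all 8 members matched; the window search was added after the values were seen. Other tools were matplotlib 3.10.9, scipy 1.17.1, numpy 2.4.6 and pandas 2.3.3 under Python 3.11.15. Alternatives were the filter, pseudocount, scaling, trend, block and left-out libraries.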

Additional observations from a re-analysis of the deposited data

Results flagged for a closer look

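In groups of 5, a highest or lowest library was set far from the other 4 (its gap to the nearest other over 0.71 of the whole range) in 5 of 40 groups of values; chance flags about 1 in 20 groups. ANXA2 was at 542 scaled TPM in cell body 2, below the other cell bodies, and this also set the summed level of the 8 members there, 933. ANXA7 was at 30.2 in cell body 3, above the other cell bodies. CAPNS1 was at 375 in protrusion 2 and at 196 in cell body 2, above the other libraries of each group.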

How the results depend on the processing

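ANXA11 was higher in protrusions under every alternative run and passed in all but 2 (without replicate 4 of either group). The count of members higher in protrusions, 1, became 3 with the replicate block, 2 under each of the 3 scalings (equal library sums, quantile, median of ratios), 7 with equal sums and the block, 3 with equal sums without both libraries numbered 2 (the last 2 settings chosen after seeing the data), and 0 to 2 with 1 library left out; no member was lower in any. Over all genes 466 were higher and 2340 lower. The count higher was 1412 with the block, 1533, 2380 and 1132 under the 3 scalings, 3677 with equal sums and the block, 1955 with equal sums without the number 2 libraries, and 257 to 649 with 1 library left out; 2136 to 2576 were then lower, and 3977 with no filter. The share of calls higher in protrusions was 16.6% as deposited, 44.9%, 57.2% and 34.6% under the scalings and 33.8% with the block. Partners higher, 1, became 4 with the block, 7, 4 and 2 under the scalings, 12 with equal sums and the block, 5 with equal sums without the number 2 libraries, and 0 to 1 with 1 library left out. Partners lower, 2, became 5 with the block, 1 with equal sums, 1 after quantile normalization, 4 without the number 2 libraries, 1 with equal sums without them, and 2 to 4 with 1 left out. The cause was not tested.

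The log2 difference changed sign for ANXA1 with equal sums (0.21, also with the block, and 0.11 without the number 2 libraries) and with median-of-ratios scaling (0.0018); for ANXA2 without the number 2 libraries (-0.026) and with 1 left out (-0.17 to 0.20); for ANXA5 after quantile normalization (-0.025), without the number 2 libraries (-0.012) and with 1 left out (-0.18 to 0.21); for S100A10 with equal sums (0.039, also with the block, and 0.015 without the number 2 libraries) and after quantile normalization (0.086); and for HSPB1 with equal sums (0.29, adjusted p = 0.00623 with the block, and 0.34 without the number 2 libraries), median-of-ratios scaling (0.085) and 1 left out (-0.21 to 0.12). None of these but HSPB1 passed after changing sign. The ratio of ANXA1 to ANXA2 kept its sign, -0.26 to -0.12 with 1 library left out, and that of ANXA11 to ANXA7 0.30 to 0.56. Read depth is unknown, so the counting error behind each value cannot be given.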
